A study of Arabidopsis thaliana with 18 samples.

Results

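GRX480 (AT1G28480), also called ROXY19, encodes a glutaredoxin of Arabidopsis thaliana. It was followed on all 18 arrays of the series through its 1 probe set among the 22810 of the ATH1 array, and it is 1 of 13350 genes named here by a probe set of their own. The gene was taken for its known response to salicylic acid (SA), with earlier results of these data known. Total RNA of the accession Van-0 was measured, with 9 samples treated with the surfactant silwet at 0.02% and 9 treated with 0.3 mM SA in silwet at 0.02%. Silwet, an organosilicone that spreads a solution over the plant surface, was thus shared by both groups, and no untreated sample was used here. The labels name no tissue, plant age or time after treatment.

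Glutaredoxins are small proteins that use glutathione to reduce disulfide bonds or to carry iron-sulfur clusters. GRX480 belongs to the CC-type, a class found in land plants whose active site starts with a pair of cysteines. SA is a hormone of the defence against pathogens. It induces GRX480 through the coactivator NPR1 and TGA transcription factors. The GRX480 protein binds TGA factors, and when overproduced it lowers transcripts of the jasmonate and ethylene branch of defence such as PDF1.2.

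Each title carries a Rep number from 1 to 3 and a running first number. Runs of 3 consecutive first numbers hold each Rep number once within a treatment and are called title sets here. Arrays are numbered 1 to 9 within each treatment in the order of these numbers, so that title set 1 holds arrays 1 to 3, set 2 arrays 4 to 6 and set 3 arrays 7 to 9. No label says what a title set marks, so differences between sets are differences between runs of title numbers. Neither does any label say that the samples came from separate plants, so p-values cover only the spread from sample to sample, and some of it may be technical. The values are MAS5 signals, a linear scale on which the mean of each array without its lowest and highest 2% is close to 100.

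The level of GRX480 differed more between title sets than between treatments. In title set 1 its signal was 675, 346 and 264 on silwet 1, silwet 2 and silwet 3, and 725, 827 and 714 on SA 1, SA 2 and SA 3. In title set 2 it was 377, 188 and 162 on silwet 4, silwet 5 and silwet 6, and 218, 320 and 252 on SA 4, SA 5 and SA 6. In title set 3 it was 154, 116 and 242 on silwet 7, silwet 8 and silwet 9, and 101, 115 and 250 on SA 7, SA 8 and SA 9. The 3 SA arrays of set 1 were the highest of all 18, which held for 5.57% of probe sets, and silwet 1 followed them. SA and silwet arrays did not overlap in set 1 and overlapped in sets 2 and 3. In set 3 the highest array of each treatment was number 9, of Rep number 3.

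**Figure D1:**
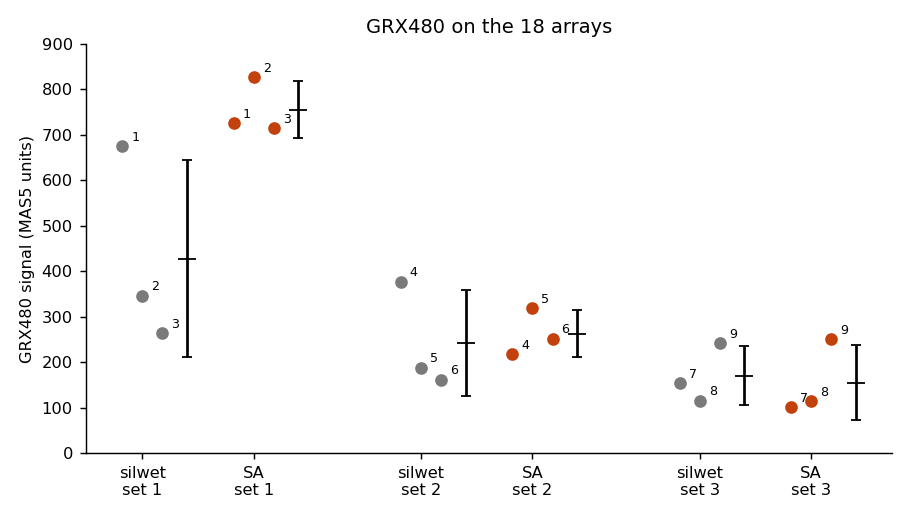
GRX480 signal in MAS5 units (vertical axis, from 0) on each of the 18 arrays, grouped by treatment and title set. Points are arrays with their number, and the bars beside them are the mean and SD of 3 arrays. The SA arrays of set 1 lie at 714 to 827, above every other array, and silwet 1 lies at 675.

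Ordered by mean, the 6 groups of 3 arrays ran from SA in set 1 (756 ± 62.3; SD, n = 3 here and in the other groups) and silwet in set 1 (428 ± 218) to SA in set 2 (263 ± 51.6) and silwet in set 2 (243 ± 117). The lowest were silwet in set 3 (171 ± 64.9) and SA in set 3 (155 ± 82.6). From silwet in set 1 downwards, neighbours in this order differed by less than the larger of their SDs. On the linear scale the spread within a group was widest in silwet set 1, where silwet 1 lay far above silwet 2 and silwet 3. On log2(signal + 2) it was 0.69 there (SD), against 0.70 in SA set 3 and 0.12 in SA set 1, the narrowest.

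In sums of squares of the log2 signal, title set held 67.5% of the variance of GRX480 between arrays. Treatment held 2.92%, its interaction with title set 6.36%, Rep number 1.22%, and 22.0% remained. The medians over all 15922 probe sets kept by the filter on low signals were 20.7% for title set, 2.04% for treatment, 10.9% for the interaction and 14.3% for Rep number. A larger share for title set than that of GRX480 was found in 5.26% of probe sets. The overall spread of GRX480 (SD 0.94 in log2 over 18 arrays, against a median of 0.46) was exceeded by 6.68% of probe sets.

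The comparison of SA with silwet asks whether the hormone moved GRX480 beyond the surfactant. Over all arrays the silwet signals had a lowest value of 116, a median of 242 and a highest of 675. With SA these were 101, 252 and 827, so the ranges overlapped nearly throughout and the medians were close. The means were 281 ± 172 with silwet and 392 ± 283 with SA (SD, n = 9). The log2 difference was 0.31 ± 0.41 (SE), a ratio of 1.24 with a 95% interval from 0.685 to 2.25. By limma the adjusted p was 1, in a comparison in which 0% of probe sets were called (0 of 15922 at an adjusted p under 0.05; 242 at an unadjusted p under 0.05). An exact permutation test of this value, two-sided, gave p = 0.492 over all arrays and p = 0.254 when arrays were exchanged only within title sets. This interval, from a fit without title set, leaves room for a rise above 2-fold as well as for a fall. Part of its width is the spread between title sets. The same log2 difference had a smaller SE of 0.245 with title set as a block. With pairs of the same title set and Rep number as a block the SE was 0.223, and GRX480 passed in neither fit.

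Within title set 1 the difference was wider. GRX480 was higher on each SA array than on any silwet array, with a log2 difference of 0.93 ± 0.40 (SE), or 1.90-fold with a 95% interval from 1.06 to 3.43. The interval is not adjusted for the number of probe sets, of which 12.6% (1999) had an unadjusted p under 0.05 by limma. The adjusted p of limma was 0.34, so the difference did not pass the threshold of 0.05. In this comparison 0.81% of probe sets were called, 0.458% higher with SA and 0.352% lower (73 and 56; after median centring of the arrays 56 and 16). With Rep number as a block 280 probe sets were called in all, and GRX480 again missed the threshold (adjusted p = 0.283 by limma). A lack of overlap with SA higher was found in 8.62% of probe sets, and 3.67% had a larger log2 difference than GRX480. The exact permutation test over the 6 arrays gave p = 0.1, the smallest that 3 against 3 arrays can give.

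The value in set 1 depended on single silwet arrays. Without silwet 1 the log2 difference was 1.31 (adjusted p = 0.207 by limma), as SA 1 to SA 3 then stood against 346 and 264. Without silwet 3, the lowest array of the set, it was 0.64 (adjusted p = 0.501 by limma). With array weights, which count arrays with large residuals less, the difference was 1.14 and passed the threshold (adjusted p = 0.0044 by limma). That fit called 2464 probe sets. Its weights were 0.191 for silwet 1 and 4.33 for silwet 2, and their estimation stopped before it converged.

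In title set 2 the log2 difference was 0.20 ± 0.40, and in set 3 it was -0.19 ± 0.40 (SE, n = 3 arrays of each treatment). Adjusted p by limma were 0.846 and 0.991, and 0% of probe sets were called in either set (10.8% and 1.96% had an unadjusted p under 0.05). Neither sign held when single arrays were left out. The set 2 value was 0.57 without silwet 4, the array with the highest silwet signal of that set, and -0.04 without silwet 6. The set 3 value was 0.09 without silwet 9 and -0.59 without SA 9.

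Whether the effect of SA on GRX480 differed between title sets was tested by the interaction of treatment and title set. Its adjusted p was 0.557 by limma, against 0.170% of probe sets called (27, or 184 with Rep number as a block, where GRX480 had an adjusted p of 0.452). The effect in set 1 exceeded that in set 2 by 0.73 ± 0.57 and that in set 3 by 1.12 ± 0.57 (log2 ± SE), with 95% intervals from -0.47 to 1.93 and from -0.08 to 2.32. With array weights the interaction passed (adjusted p = 0.0155 by limma), in a fit that called 3956 probe sets. A larger effect in set 1 was therefore not shown beyond the spread when all arrays counted equally.

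**Figure D2:**
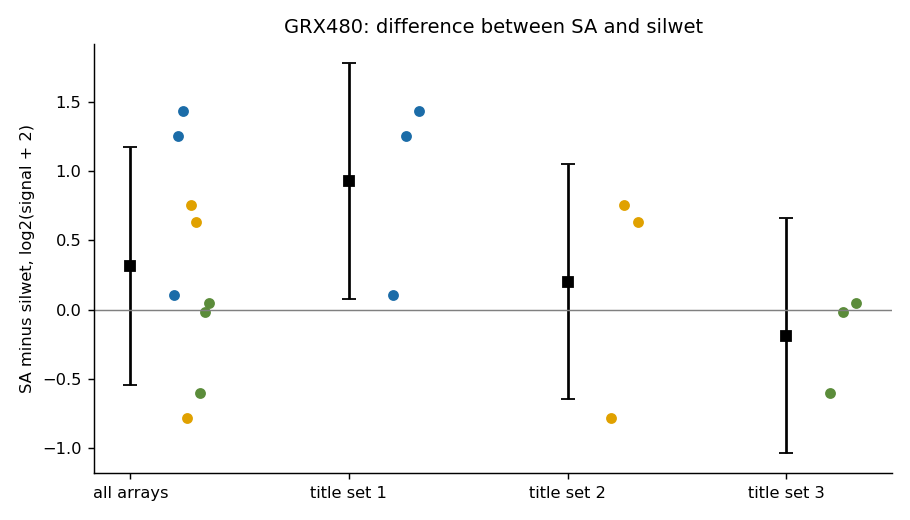
Difference of GRX480 between SA and silwet in log2(signal + 2) (vertical axis), over all arrays and in each title set. Squares with bars are the estimate and its 95% interval, and circles are pairs of 1 SA and 1 silwet array of the same title set and Rep number (blue for set 1, yellow for set 2, green for set 3). The interval of set 1 runs from 0.08 to 1.78, and the other 3 intervals include 0. Intervals are not adjusted for the number of probe sets, and the difference in set 1 did not pass after adjustment.

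Arrays were next compared in pairs of the same title set and Rep number. Between such arrays SA was higher in 3 of 3 pairs in set 1, in 2 of 3 in set 2 and in 1 of 3 in set 3. All 3 pairs of set 1 pointed the same way in 17.4% of probe sets too. In set 1 the ratio of SA to silwet was 1.07 for Rep number 1, 2.39 for Rep number 2 and 2.71 for Rep number 3. In set 2 it was 0.578, 1.70 and 1.56, and in set 3 it was 0.655, 0.990 and 1.03. In each title set the lowest ratio was that of Rep number 1.

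The mean log2 difference was -0.43 ± 0.47 over the pairs of Rep number 1, 0.66 ± 0.64 over those of Rep number 2 and 0.70 ± 0.69 over those of Rep number 3 (SD, n = 3). Silwet signals averaged 402, 217 and 223 in Rep numbers 1, 2 and 3, and SA signals 348.3, 421 and 406. The interaction of treatment with Rep number, a test added after these values were seen, had an adjusted p of 0.525 by limma (0% of probe sets called, 1674 at an unadjusted p under 0.05). It passed with array weights (adjusted p = 0.00359). Without Rep number 1 the log2 difference over all arrays was 0.68 and that of set 1 was 1.34 (adjusted p of 1 and 0.202 by limma). Without Rep number 2 they were 0.14 and 0.77, and without Rep number 3 they were 0.12 and 0.68. Averaged over treatments, Rep numbers did not differ detectably for GRX480 (adjusted p = 0.953 by limma, against 0.0251% of probe sets called). That fit held no term for title set, and 15.8% of probe sets had an unadjusted p under 0.05 in it.

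Of the silwet arrays of Rep number 1, 2 carried a low ratio of 5′ to 3′ signal of the control transcript GAPDH, a sign of RNA quality. It was 0.465 on silwet 4 and 0.225 on silwet 7, with 0.767 to 1.29 on the other 16 arrays and 0.989 on silwet 1; the part of this in the results was not tested. GRX480 was the highest of its group on silwet 4 and in the middle of its group on silwet 7. Without both arrays the log2 difference was 0.31 over all arrays, 0.93 in set 1, 0.57 in set 2 and -0.23 in set 3, and none passed. Median signals of the 18 arrays lay between 23.3 and 36.6. The leaf transcript RCA, which encodes Rubisco activase, had 1429 to 4059 on all arrays, lowest on silwet 4 and silwet 7. Of the root markers, the root hair gene EXPA18 had 8.60 to 25.5 and EXPA7 did not pass the filter, while the beta-glucosidase gene PYK10 had 54.9 to 320 on silwet arrays and 77.7 to 199 on SA arrays. None of the 4 flower markers looked for had a probe set naming 1 gene.

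**Figure D3:**
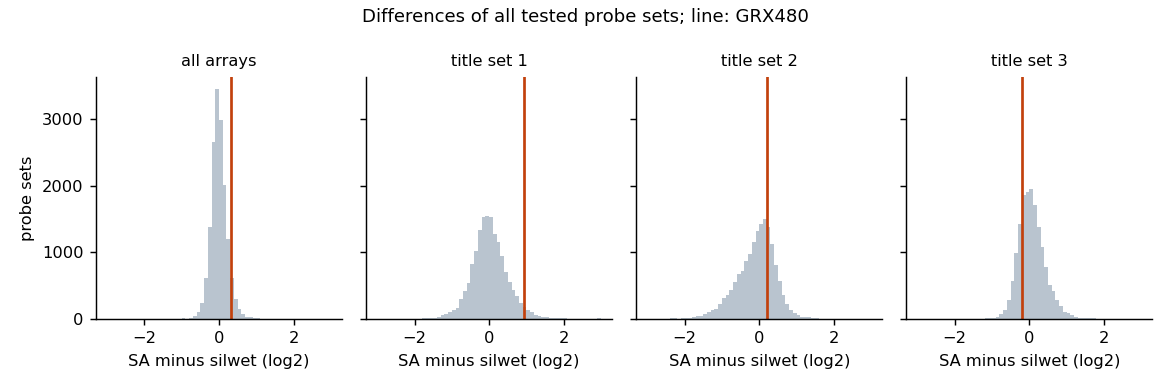
Number of probe sets (vertical axis) by their log2 difference between SA and silwet (horizontal axis, values beyond 3 in either direction placed at the ends), over all arrays and in each title set. The line marks GRX480 at 0.31, 0.93, 0.20 and -0.19. Larger differences were found in 3.67% of probe sets in set 1, 30.2% in set 2 and 76.5% in set 3.

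The level across title sets was compared with SA and silwet arrays counted equally. GRX480 was higher in set 1 than in set 2, at 546 against 243 in geometric means of 6 arrays, a log2 difference of 1.16 ± 0.28 (SE; adjusted p = 0.00746 by limma). It was higher in set 1 than in set 3 (153), by 1.83 ± 0.28 or 3.54-fold with a 95% interval from 2.34 to 5.37 (adjusted p = 0.000229 by limma). Such calls were common. Between sets 1 and 2, 22.3% of probe sets were called, 11% higher and 11.3% lower in set 1, and between sets 1 and 3, 21.6%, 9.73% higher and 11.9% lower. All 6 arrays of set 1 lay above those of set 3 for GRX480, as in 3.93% of probe sets. Differences larger than that of GRX480 were found in 5.23% and 1.59% of probe sets. The difference between sets 2 and 3, 0.66 ± 0.28, did not pass (adjusted p = 0.742 by limma, 0.0251% of probe sets called). Other lists held genes that moved with title set in the same direction, and genes that did not. Of 5 listed touch and handling genes, only STZ, a zinc finger gene that answers to touch and other stress, had a probe set naming 1 gene. It had 700.1, 584 and 505 on silwet 1 to silwet 3 and 536, 691 and 504 on SA 1 to SA 3. On the other arrays it had 104 to 591, and in set 3 it was highest on silwet 9 (487) and SA 9 (591), as GRX480 was on the same arrays. STZ was higher in set 1 than in set 2 by 1.31 ± 0.37 and than in set 3 by 1.503 ± 0.37 (log2 ± SE; adjusted p = 0.0186 and adjusted p = 0.00812 by limma), and its difference between SA and silwet in set 1 was -0.05. The root marker PYK10 was higher in set 1 than in set 3 by 0.997 ± 0.226 (adjusted p = 0.00428 by limma), and its difference from set 2 of 0.33 did not pass. The other tested root marker, EXPA18, went the other way. Its log2 difference was -0.22 for set 1 minus set 2 and -0.27 for set 1 minus set 3, and neither passed. Of 3 listed senescence genes, only SAG29 had a probe set naming 1 gene, and it had -1.17 and -0.83 for these differences. The leaf transcript RCA had -0.04 and -0.14. None of these values of SAG29 and RCA passed. The part of handling or of root tissue in the levels of GRX480 was not tested.

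Without Rep number 2 the GRX480 difference between sets 1 and 2 was 1.19 and no longer passed (adjusted p = 0.115).

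The higher level in set 1 was then followed in each treatment alone, in contrasts added after the values were seen. Among SA arrays, GRX480 in set 1 exceeded set 2 by 1.53 ± 0.40 and set 3 by 2.38 ± 0.40 (log2 ± SE; adjusted p = 0.00988 and adjusted p = 0.000606 by limma, with 29% and 18.1% of probe sets called, 15.1% and 8.6% higher). All SA arrays of set 1 lay above those of the other sets, which held for 14.5% of probe sets. The first of these calls ended after median centring (1.30, adjusted p = 0.0559), and without Rep number 2 both ended (1.61 and 2.16). Among silwet arrays the excess was 0.80 ± 0.40 over set 2 and 1.27 ± 0.40 over set 3, and neither passed (adjusted p = 0.52 and adjusted p = 0.108 by limma, with 0.854% and 3.42% of probe sets called, 0.666% and 2.44% higher). All silwet arrays of set 1 (264 to 675) lay above those of set 3 (116 to 242), as in 7.44% of probe sets. The excess over set 3 passed with array weights (1.28, adjusted p = 0.00144), and the excess over set 2 was 0.42 without silwet 1.

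GRX480 was set beside the other glutaredoxins of a list by gene identifier. Of 21 CC-type genes, 17 had a probe set naming 1 gene and 15 passed the filter on low signals, GRX480 among them. ROXY1 and ROXY2, which act in petal and anther development, did not pass it. Of the other 14 CC-type genes, none passed the test between SA and silwet over all arrays or in any title set. In set 1, where GRX480 had 0.93, their log2 differences ran from -0.96 for AT4G33040 to 0.75 for AT4G15690, 6 of 14 were positive, and their median was -0.12. The median over all probe sets was -0.01.

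Between title sets the CC-type genes were called in both directions. Of the 14 genes, 7 were called higher and 2 lower in set 1 than in set 2, against 11% and 11.3% of all probe sets. In set 1 against set 3, 5 were called higher and 2 lower, against 9.73% and 11.9% of all probe sets. The 2 of 14 called lower are near these shares. The genes called higher in both comparisons were AT2G30540, AT4G15660, AT4G15680, AT4G15690 and AT4G15700. The last 4 are close relatives with neighbouring identifiers. Whether their probe sets share signal was not tested, so they may not be 4 separate observations. AT4G15660 had 80.4, 102 and 80.5 on SA 1 to SA 3 and 71.6, 78.9 and 57.4 on silwet 1 to silwet 3. On the other 12 arrays it lay between 22.7 and 51.0, so that set 1 did not overlap with the others (2.18% of probe sets). It exceeded set 2 by 1.25 ± 0.21 and set 3 by 1.09 ± 0.21 in log2 (SE; adjusted p = 0.000627 and adjusted p = 0.00142 by limma).

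AT5G18600 and AT3G62950 were called higher in set 1 than in set 2 only, by 0.69 ± 0.18 and 1.45 ± 0.37 (adjusted p = 0.0116 and adjusted p = 0.00987 by limma); their difference from set 3 was 0.51 and 0.47 and did not pass. AT5G11930 and AT4G33040 were called lower in set 1 than in both other sets. AT5G11930 lay at 9.83 to 29.0 in set 1 and at 20.3 to 49.5 elsewhere, with log2 differences of -0.87 and -1.10 from sets 2 and 3 (adjusted p = 0.0088 and adjusted p = 0.00152 by limma).

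Of 10 glutaredoxins outside the CC-type, 5 had a probe set naming 1 gene and all 5 were tested. They carry other active sites and include GRXC1 and GRXC2. None passed between SA and silwet, and all 5 had a negative log2 difference over all arrays, between -0.29 and -0.07. Between title sets 1 gene, AT5G20500, passed, at -0.54 ± 0.14 in set 1 against set 2 (adjusted p = 0.00911 by limma). This 1 of 5 is near the share of all probe sets called between these sets, 22.3%, with 11.3% lower in set 1.

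**Figure D4:**
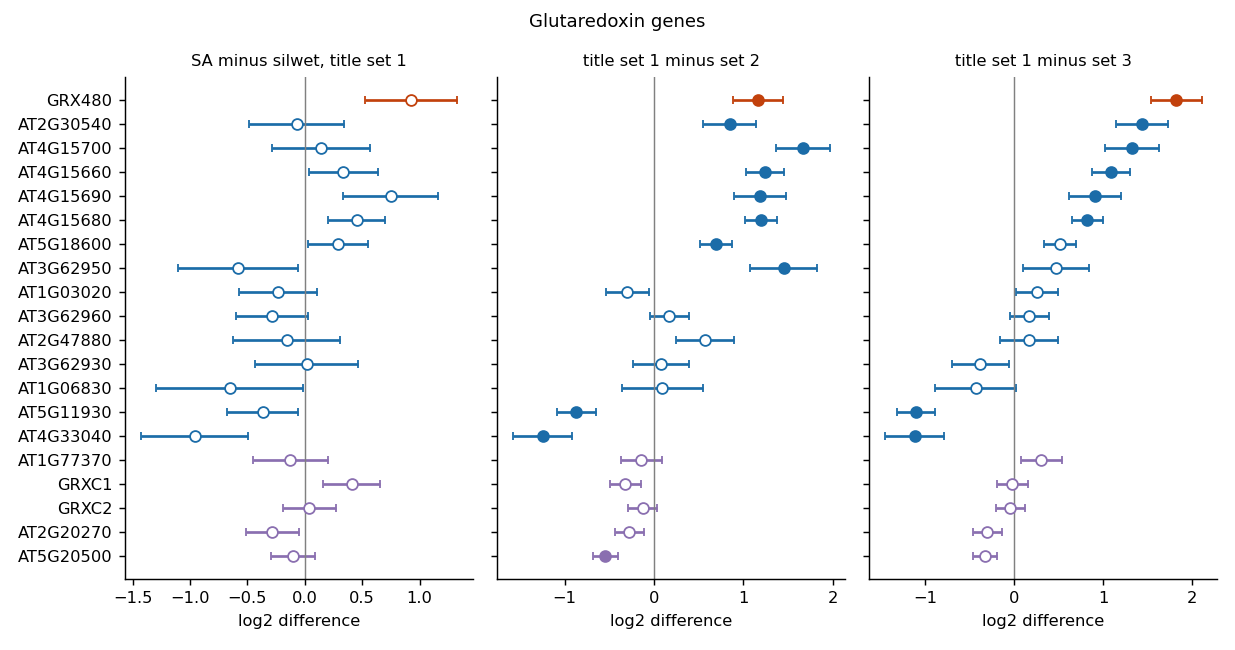
Log2 differences (horizontal axis, with SE) of 20 glutaredoxin genes between SA and silwet in title set 1, between sets 1 and 2 and between sets 1 and 3, the last 2 over both treatments. GRX480 is red, other CC-type genes blue and other glutaredoxins purple; filled points passed an adjusted p of 0.05 by limma. No gene passed in the first panel, where GRX480 lies at 0.93.

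Other genes of the SA pathway could be followed only in part. None of the 10 TGA factors and none of the 8 NPR1-type regulators and partners of the lists had a probe set naming 1 gene. Of 8 SA response markers, WRKY53, a transcription factor of defence and senescence, was measured. WRKY53 had 590.0, 652 and 412 on SA 1 to SA 3 and 222, 293 and 171 on silwet 1 to silwet 3. Its log2 difference in set 1 was 1.27 and did not pass (adjusted p = 0.0726 by limma). In sets 2 and 3 it was -0.49 and -0.31, and these did not pass. Its highest silwet signal was on silwet 2, where that of GRX480 was on silwet 1.

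Of 11 genes in a list of SA synthesis, conversion and related steps 3 were tested. In set 1, 2 of them were called higher with SA, against 0.458% of all probe sets. The list was chosen with earlier results of these data known, so this count is a description only. UGT76B1, which conjugates SA with glucose, had 1561, 1356 and 1398 on SA 1 to SA 3 and 188, 62.7 and 121 on silwet 1 to silwet 3 (log2 difference 3.65 ± 0.43, adjusted p = 0.00098 by limma). AT5G52810, a reductase gene of the pathway to pipecolic acid, had 504, 473 and 519 against 283, 131 and 164 (1.44 ± 0.27, adjusted p = 0.0198 by limma). On silwet 1 all 3 of GRX480, UGT76B1 and AT5G52810 had their highest silwet signal. In sets 2 and 3 the log2 differences were 0.51 and 1.32 for UGT76B1 and -0.40 and 0.01 for AT5G52810, and none passed. BSMT1, which methylates SA, had -1.08 in set 1, 0.59 in set 2 and 0.46 in set 3, and none passed (adjusted p = 0.54 in set 1 by limma).

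Of 10 jasmonate and ethylene defence genes 3 were tested, and none passed. The defensin gene PDF1.2 had 7.42, 4.22 and 7.31 on SA 1 to SA 3, its lowest level of any group, and 55.2, 13.97 and 14.2 on silwet 1 to silwet 3. These SA signals lay below the median signals of the same arrays (29.4 to 32.8), and low signals are noisy. On silwet 7, one of the arrays with a low 5′ to 3′ ratio, PDF1.2 had 192. Its log2 difference was -1.59 in set 1, 0.02 in set 2 and -0.64 in set 3 (adjusted p = 0.368, adjusted p = 0.994 and adjusted p = 0.991 by limma). PDF1.2b, whose probe set can detect related sequences, had -0.59, -2.12 and -1.001 in sets 1, 2 and 3. The thionin gene THI2.1 had -1.24, -0.86 and -0.74.

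The genes most like GRX480 were sought by Pearson correlation of log2 signals over the 18 arrays among 8673 named genes that passed the filter. The measure is a description. The points share arrays, and title sets and single arrays move many transcripts at the same time. It exceeded 0.9 for 24 genes, and its median over all named genes was -0.12. The 10 highest were AT5G10695 (0.944), AT3G18560, AT1G49000, AT3G01830, AT4G39670, AT2G28400, AT2G46620, AT5G64230, AT1G32920 and AT5G51830 (0.924), with Spearman's rho between 0.893 and 0.967. Among probe sets without a single gene name, 11 lay above the last of these.

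These genes were chosen as the highest over the same 18 arrays, so their coefficients on some of those arrays are a description only. Over the 12 arrays of sets 2 and 3 the coefficient of these 10 genes was 0.829 to 0.938, and without SA 1 and SA 2, the arrays farthest from the median of GRX480, it was 0.897 to 0.952 (n = 16). Deviations from the 6 group means correlated at 0.726 to 0.885. The gene at the head of the list, AT5G10695, had 556 ± 186 with silwet and 838 ± 186 with SA in set 1, 396 ± 212 and 352 ± 85.7 in set 2, and 306 ± 74.2 and 239 ± 132 in set 3 (SD, n = 3). Like GRX480 it was highest within its silwet group on silwet 1 (767) and silwet 4 (624), and in set 3 highest on number 9 in each treatment. None of the 10 passed between SA and silwet in any title set, and their log2 differences in set 1 ran from 0.12 to 1.31.

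WRKY53 stood 24th in likeness (0.902), UGT76B1 92nd (0.859) and the zinc finger gene STZ 153rd (0.83). The CC-type gene nearest to GRX480 was AT4G15660, 137th at 0.836, and the other 13 CC-type genes ran from -0.57 to 0.80. At the opposite end, the 5 lowest coefficients were those of AT4G30020 (-0.94), TUB5, AT3G14860, TUB6 and AT3G16560 (-0.92). TUB5 and TUB6 encode beta-tubulins. TUB5 had 109, 239 and 234 on silwet 1 to silwet 3 and 135, 122 and 164 on SA 1 to SA 3, against 191 to 401 on the other arrays. It was lowest on silwet 1, the silwet array with the most GRX480 signal. As TUB5 was chosen for its low coefficient over these arrays, this is a description only.

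**Figure D5:**
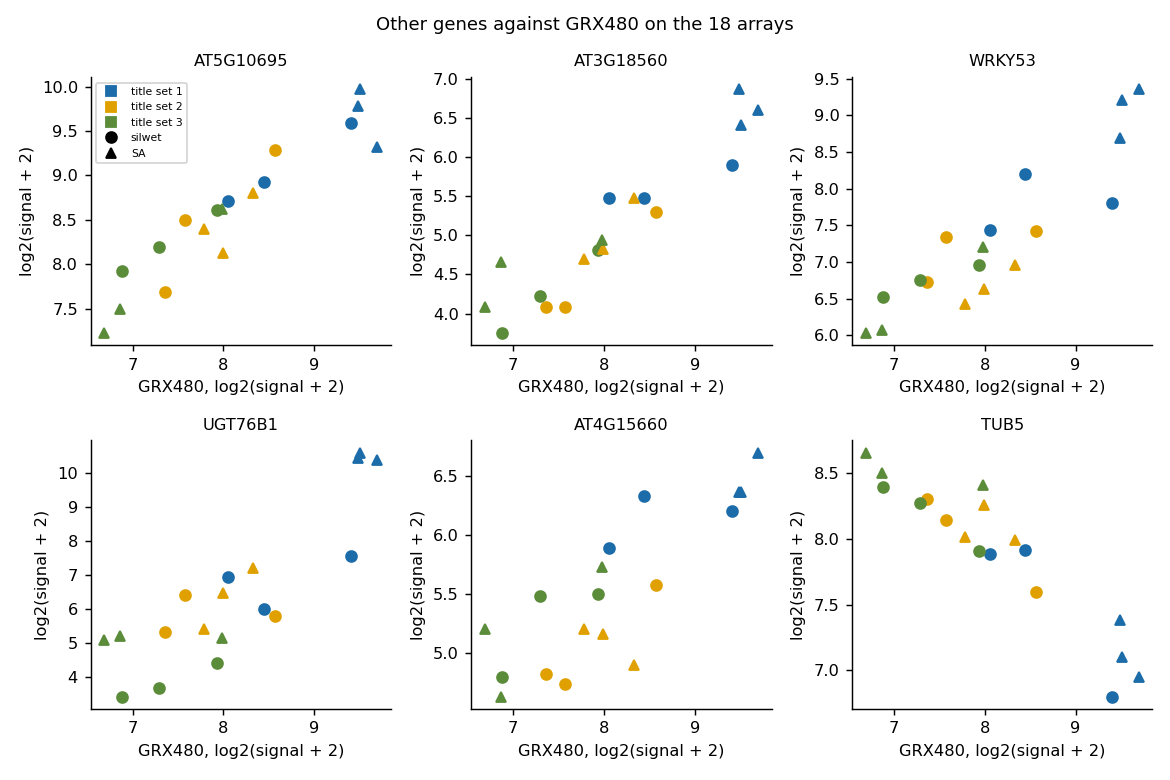
Log2(signal + 2) of 6 genes (vertical axes) against that of GRX480 (horizontal axes) on the 18 arrays; colour gives the title set, circles are silwet and triangles SA. AT5G10695 and AT3G18560 follow GRX480 with coefficients of 0.944 and 0.938, UGT76B1 stands apart on the SA arrays of set 1, and TUB5 runs opposite with a coefficient of -0.93.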

How the data were processed

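Total RNA of each sample was measured on an ATH1 array of its own. The authors deposited 1 intensity per probe set and array, made with MAS5 per the submitters' processing notes. No other step is named there. MAS5 scales each array alone, so a shift common to most transcripts is hidden, and low signals are noisy. The number of arrays limits the precision.

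Signals were analysed as log2(signal + 2), which understates changes of low signals. The 64 control probe sets and the lowest 30% of the others by mean were left out. This left 15922. limma 3.58.1 in R 4.3.3 (eBayes with an intensity trend, two-sided, Benjamini-Hochberg over all probe sets kept, threshold 0.05) was run on 2 groups of 9 arrays, and on 6 groups of 3 for title sets. The code was tested on simulated data. Alternatives covered the pseudocount, filter, normalization, trend, array weights, blocks and left-out arrays. Genes were named through the platform annotation, updated to TAIR10.1; 13513 probe sets had 1 gene, 503 several, and 8794 are unnamed here. No coordinates and no sequences were used.

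The gene, the lists and the tests were chosen with earlier results of these data known. Named genes were GRX480, the 10 most and 5 least correlated with it (each gene by its brightest probe set), and members of lists with under 6 measured genes. CC-type glutaredoxins named singly were chosen after their values were seen. The closest pair of arrays differed by a median of 0.23 in log2, so none was a duplicate.

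Deviations from treatment means, averaged per Rep number, correlated between the treatments at 0.35, 0.42 and 0.32 for the same number, so Rep numbers pair the samples and the replicate block was applied as an alternative. Pairs of the same title set and Rep number correlated at 0.02 to 0.53, with 8 of 9 above 0.1.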

Additional observations from a re-analysis of the deposited data

Results flagged for a closer look

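In a group of 9 arrays, a signal is listed here where its gap to the nearest other array is a larger part of the range of the group than Dixon's 95% critical value. Of 84 groups (42 genes in each treatment) 13 such signals were found, where chance gives about 4.2 for normally distributed values. Signals are on the linear scale, and on the log2 scale 1 of the 13, that of AT5G51830, stood apart as well.

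On silwet 1, GRX480 stood at 675 (others 116 to 377). On the same array AT2G46620 stood at 446 (others 181 to 305) and AT5G51830 at 754 (130 to 310). Both had been chosen as most like GRX480 over these same arrays. AT5G52810 stood there at 283 (131 to 202), and the CC-type glutaredoxin gene AT1G06830 at 278 (29.4 to 146).

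The CC-type gene AT4G15690 stood at 34.7 on silwet 2 (9.69 to 22.2) and at 73.6 on SA 3 (10.1 to 40.4). AT4G33040 stood at 125 on SA 4 (14.9 to 64.9), and so did BSMT1 at 111 (18.0 to 55.9) and THI2.1 at 45.8 (8.24 to 22.5). On silwet 4 THI2.1 stood at 194 (10.9 to 61.4). On silwet 7 PDF1.2 stood at 192 (11.04 to 55.2) and PDF1.2b at 799 (8.95 to 117).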

How the results depend on the processing

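For GRX480, 431 of 445 values under 35 alternatives kept their direction and their side of the threshold, and 6 turned their sign, all in title sets 2 and 3 with arrays left out. Leaving out 1 array or 1 Rep number gave log2 differences between SA and silwet of 0.119 to 0.684 over all arrays, 0.639 to 1.34 in set 1, -0.0764 to 0.694 in set 2 and -0.590 to 0.0940 in set 3. It gave adjusted p by limma of 0.293 to 1 for the interaction with title set, 0.0886 to 1 for that with Rep number and 0.719 to 0.996 for Rep number. The sign turned in set 2 without silwet 6 (-0.0356), Rep number 2 (-0.0764) or Rep number 3 (-0.0139), and in set 3 without silwet 9 (0.0940), SA 7 (0.0558) or Rep number 1 (0.0164). Set 1 then exceeded set 2 by 0.972 to 1.35 over both treatments, 0.416 to 1.17 with silwet and 1.40 to 1.68 with SA. It exceeded set 3 by 1.51 to 2.33, 0.843 to 1.84 and 2.14 to 2.82, and set 2 exceeded set 3 by 0.398 to 1.13. Without Rep number 2 the calls for sets 1 and 2 ended (1.19 over both treatments, 1.61 with SA). So did the call for sets 1 and 3 with SA (2.16). The same calls held without Rep number 1 or Rep number 3, and the cause was not tested. After median centring the call for sets 1 and 2 with SA ended (1.30). Median centring moved the median of all probe sets between sets 1 and 2 from 0.02 to -0.12, and GRX480 lay 1.14 above it either way. With array weights, whose estimation did not converge, GRX480 passed in set 1 (1.14), in both interactions (adjusted p = 0.0155 and adjusted p = 0.00359) and for sets 1 and 3 with silwet (1.28); the cause was not tested.

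The count of probe sets called over all arrays was 0, 1 with title set as a block and 3 for the mean of the set differences. In set 1 it was 129, against 72 after median centring, 2464 with array weights, 280 and 320 with Rep number as a fixed and a random replicate block, 408 with the paired replicate block and 324 without silwet 4 and silwet 7. In set 2 it was 0, against 1 after quantile normalization, 1360 with array weights and 1 with the random replicate block, and in set 3 it was 0, against 43 with array weights. For the interaction with title set it was 27, against 59 after quantile normalization, 5 after median centring, 3956 with array weights, 184 and 215 with the fixed and the random replicate block, 197 with the paired block and 437 without silwet 4 and silwet 7. No replicate block changed a call of GRX480.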
